A study of Mus musculus with 6 samples.

Results

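BMP and TGF-beta signalling genes were examined in endothelial cells sorted from mouse brain: the co-receptor Eng, the receptors Acvrl1, Bmpr2 and Tgfbr2, the latent TGF-beta docking gene Lrrc32, the feedback inhibitors Smad6 and Smad7, and the target genes Id1, Id2 and Id3. These 10 genes, of 54532 in the deposited table, were chosen by gene name for their pathway, with the FPKM of the 6 libraries already known, including that some of them differed between libraries of a group. Each had 1 row in the table, and all 10 passed the filter on low values (3 or more libraries with an FPKM, the count per kilobase of gene length adjusted for library size, of 1 or more). Because the values were known at the choice, the treatment differences and the library orders below describe the genes and support nothing further.

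All 6 libraries came from Df(h22q11)/+ mice, which carry a heterozygous deletion of the interval that corresponds to human 22q11.2, and wild-type mice are not analysed here. The 3 untreated libraries (F_1, F_2 and M_1) came from mice on irradiated base chow, and the 3 bezafibrate libraries (F_1, M_1 and M_2) from mice on chow with 0.5% bezafibrate, a lipid-lowering drug that acts on PPAR nuclear receptors. Feeding lasted 4 weeks. Mice were 12 to 16 weeks old. Each library pooled 3 brains from mice of 1 sex (F female, M male), so a single mouse cannot be seen. Values are given in the order F_1, F_2, M_1 for untreated and F_1, M_1, M_2 for bezafibrate libraries. Live CD31+, CD45-, PDGFRb- cells were sorted.

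In this pathway a ligand brings together type I and type II receptor kinases, which phosphorylate SMAD proteins that enter the nucleus with SMAD4. Endothelial cells use ACVRL1 (ALK1) with BMPR2 and the co-receptor endoglin (ENG) for the circulating ligands BMP9 and BMP10, and mutations of ENG or ACVRL1 cause hereditary haemorrhagic telangiectasia. TGFBR2 is the type II receptor for TGF-beta itself. SMAD6 and SMAD7 feed back on the receptors and SMADs, and ID proteins, which block basic helix-loop-helix transcription factors, are textbook targets of BMP signalling.

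Recovered reads (whole reads computed back from the FPKM) summed to 16858130 to 20228619 per library. The endothelial label held: Cldn5 lay between 774 and 1386 FPKM and Cdh5 between 222 and 347, while the leukocyte gene Ptprc did not exceed 0.0349 FPKM and Pdgfrb lay between 6.29 and 12.2. Xist and Ddx3y fitted the titled sex in 6 of 6 libraries. A pair of libraries, untreated M_1 and bezafibrate F_1, lay away from the rest, with scores of 30.3 and 24.4 on a first principal component on which the other 4 libraries scored between -22.6 and 1.62. These libraries also had the highest composition ratio (summed reads over the library size used for scaling), 1.09 and 1.06 against 0.888 to 1.03, and the highest summed FPKM of 10 endothelial markers, 10436 and 9915 against 6177 to 8840. Slc2a1, which encodes the glucose carrier GLUT1, made up 55.1% and 53.8% of those sums. The markers went both ways: Tek was lowest in these libraries, at 124 and 131 FPKM against 138 to 184 elsewhere. Fits without either or both of these libraries, and with the composition ratio as a covariate, are given below as description. Why these libraries lay apart was not tested, and in bulk samples fewer cells of a type and less RNA per cell cannot be told apart.

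Bezafibrate and untreated libraries overlapped in all 10 genes. The log2 difference (bezafibrate minus untreated, in log2(FPKM + 1)) was negative for 7 and positive for 3, with a median of -0.16 against -0.01 over the 11277 genes tested. These signs depended on the fit: 6 were negative on the TPM scale described below, where Smad7 turned from -0.10 to 0.01, and 3 were negative with the composition ratio as a covariate, where Smad6, Smad7, Eng, Acvrl1 and Bmpr2 turned positive and Tgfbr2 negative. The limma test called 0 of the 10 genes, beside 1 of 11277 genes (0.00887%), and each had an adjusted p = 0.999. At an unadjusted p under 0.05 the count was 0 of 10 in this fit. Lrrc32 fell under that threshold in some other fits. Among them were limma-voom on the recovered reads (limma-voom unadjusted p = 0.0410), limma with quantile scaling (0.0467) and limma with array weights (0.0141). Each of these fits called 0 of the 10 at an adjusted p under 0.05. Groups without overlap were found for 0 of 10, beside 8.42% of all genes tested. Within the groups, 6 of the 10 genes were highest in untreated M_1 and bezafibrate F_1, an order found in 17.1% of all genes tested, and Tgfbr2 alone of the 10 was lowest in both, an order found in 14.8%.

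**Figure D1:**
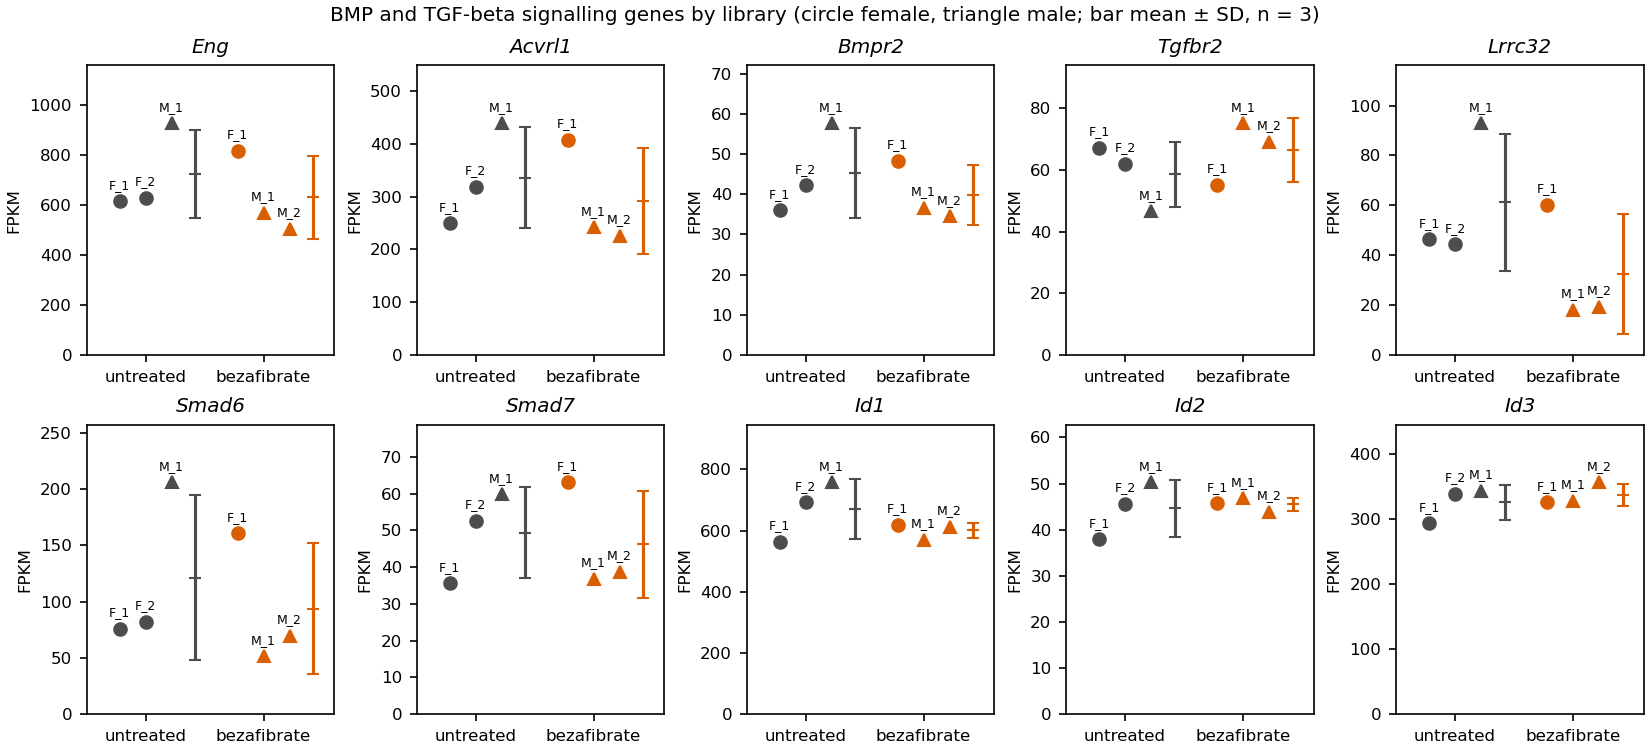
FPKM of each gene in the 3 untreated (grey) and 3 bezafibrate (orange) libraries, on axes that start at 0, with circles for female and triangles for male pools and bars for the mean ± SD (n = 3). Smad6 reached 206 FPKM in untreated M_1 and 161 in bezafibrate F_1, above the other 4 libraries, whereas Tgfbr2 was lowest in these libraries at 46.7 and 55.2.

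Promoter windows are shown for Smad6 and Eng, which were high in the same libraries, and for Tgfbr2, which was low in them. Each is the run of 250 bases before the RefSeq start (GRCm38.p6), printed 5′ to 3′ on the gene's strand: Smad6 at chr9:64022060-64022309 (minus strand), Eng at chr2:32646345-32646594 (plus strand) and Tgfbr2 at chr9:116175364-116175613 (minus strand). Capitals mark matches, on either strand, to CAGAC, a core bound by SMAD3 and SMAD4, or to GGCGCC, a GC-rich element bound by BMP-activated SMADs; GTCTAGAC, the palindromic SMAD box, was also searched. None of these motifs contains another.
Smad6: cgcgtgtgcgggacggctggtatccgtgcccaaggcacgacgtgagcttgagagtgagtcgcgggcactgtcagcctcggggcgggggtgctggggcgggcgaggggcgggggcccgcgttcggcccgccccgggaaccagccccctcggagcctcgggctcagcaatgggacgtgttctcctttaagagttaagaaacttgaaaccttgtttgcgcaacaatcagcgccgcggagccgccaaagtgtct
Eng: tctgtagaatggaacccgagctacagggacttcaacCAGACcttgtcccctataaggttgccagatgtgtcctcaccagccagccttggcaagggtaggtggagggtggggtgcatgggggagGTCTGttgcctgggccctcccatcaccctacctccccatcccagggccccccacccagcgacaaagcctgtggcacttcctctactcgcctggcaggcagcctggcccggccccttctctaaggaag
Tgfbr2: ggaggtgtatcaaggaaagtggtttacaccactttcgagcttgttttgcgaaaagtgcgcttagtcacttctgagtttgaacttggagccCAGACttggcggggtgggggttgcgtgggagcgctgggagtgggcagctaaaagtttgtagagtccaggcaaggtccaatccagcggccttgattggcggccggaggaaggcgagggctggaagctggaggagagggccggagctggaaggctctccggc
The Smad6 window holds 0 matches to the 3 motifs, the Eng window 2 to CAGAC and the Tgfbr2 window 1 to CAGAC. Of 32851 windows of this length, 42.2% hold CAGAC, 9.59% GGCGCC and 0.167% GTCTAGAC. Windows were also read for Id2 (1 GGCGCC), Id3 (2 CAGAC) and Bmpr2 (1 GGCGCC), 6 genes in all, and no window was read for the other 4 genes.

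Eng (ENSMUSG00000026814, GRCm38 chromosome 2, 32646595 to 32682669, plus strand) encodes endoglin, the co-receptor that presents BMP9 and BMP10 to ACVRL1. It had 613, 628 and 926 FPKM in the untreated libraries and 816, 567 and 505 with bezafibrate. Untreated M_1 and bezafibrate F_1 were high, and the other 4 libraries lay within 504.6 to 628. The group means were 722 ± 176 and 629 ± 164 FPKM (SD, n = 3 each), and the log2 difference was -0.20 (SE 0.244), which was -0.01 without untreated M_1 and -0.41 without bezafibrate F_1. The antisense gene Fpgs covers 1.51% of the exon bases of Eng.

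Acvrl1 (ENSMUSG00000000530, chromosome 15, 101128522 to 101145336, plus strand) encodes ALK1, the type I receptor that works with endoglin. Its values were 249.998, 319 and 439 FPKM in the untreated libraries, and 408, 242 and 226 with bezafibrate. The order of the 6 libraries was that of Eng. Means were 336 ± 95.8 and 292 ± 101 FPKM (SD, n = 3 each), and the log2 difference was -0.22 (SE 0.287), which was -0.0036 without untreated M_1 and -0.48 without bezafibrate F_1. The antisense gene Gm16031 covers 2.98% of its exon bases.

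Bmpr2 (ENSMUSG00000067336, chromosome 1, 59763400 to 59879014, plus strand), the type II partner of ALK1 for BMP ligands, had the lowest mean of the 10 genes over all 6 libraries, though not within either group. It stood at 36.0, 42.2 and 57.7 FPKM in the untreated libraries and at 48.4, 36.7 and 34.5 with bezafibrate. The same libraries were highest again, over a narrower range. The log2 difference was -0.17 (SE 0.212), which was 0.02 without untreated M_1 and -0.31 without bezafibrate F_1.

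Tgfbr2 (ENSMUSG00000032440, chromosome 9, 116084293 to 116175360, minus strand), the type II receptor for TGF-beta, ran the other way. It had 67.2, 62.0 and 46.7 FPKM in the untreated libraries and 55.2, 75.2 and 69.2 with bezafibrate. Untreated M_1 was the lowest library and bezafibrate F_1 the next, and the groups overlapped. Means were 58.6 ± 10.6 and 66.5 ± 10.3 FPKM (SD, n = 3 each), and the log2 difference was 0.18 (SE 0.189). This difference was 0.03 without untreated M_1 and 0.31 without bezafibrate F_1.

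Lrrc32 (ENSMUSG00000090958, chromosome 7, 98489283 to 98502181, plus strand) encodes GARP, a cell-surface protein that docks latent TGF-beta and is known on regulatory T cells, platelets and endothelium. It had 46.4, 44.4 and 92.9 FPKM in the untreated libraries and 60.2, 18.1 and 19.4 with bezafibrate. Both male bezafibrate libraries lay below all others, and bezafibrate F_1 lay between untreated F_1 and M_1. The means were 61.3 ± 27.5 and 32.6 ± 24.0 FPKM (SD, n = 3 each), and the log2 difference of -1.03 (SE 0.480) was the most negative of the 10 genes. Lymphocyte and platelet transcripts stayed low beside it: the summed FPKM of Cd3e, Foxp3, Itga2b, Pf4 and Gp9 was 0.350 to 0.580 in untreated and 0.427 to 1.89 in bezafibrate libraries, with Foxp3 at no more than 0.111 FPKM in any library.

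With untreated M_1 and bezafibrate F_1 left out, Lrrc32 had a log2 difference of -1.24 (SE 0.145, limma adjusted p = 0.0830), and 0 of the genes tested were called in that fit. These libraries were set apart from the data themselves, and Lrrc32 was highest in them. Leaving them out therefore narrows its spread within the groups, and this SE and adjusted p support nothing further. The 4 libraries in that fit are 2 female untreated and 2 male bezafibrate libraries, so that treatment and sex cannot be told apart in them. The Lrrc32 difference was -1.57 without bezafibrate F_1 (adjusted p = 0.227) and -0.69 without untreated M_1 (adjusted p = 0.9996). With sex as a covariate in all 6 libraries the difference was -0.93 (SE 0.540), and with the composition ratio as a covariate it was -0.38 (SE 0.218).

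**Figure D2:**
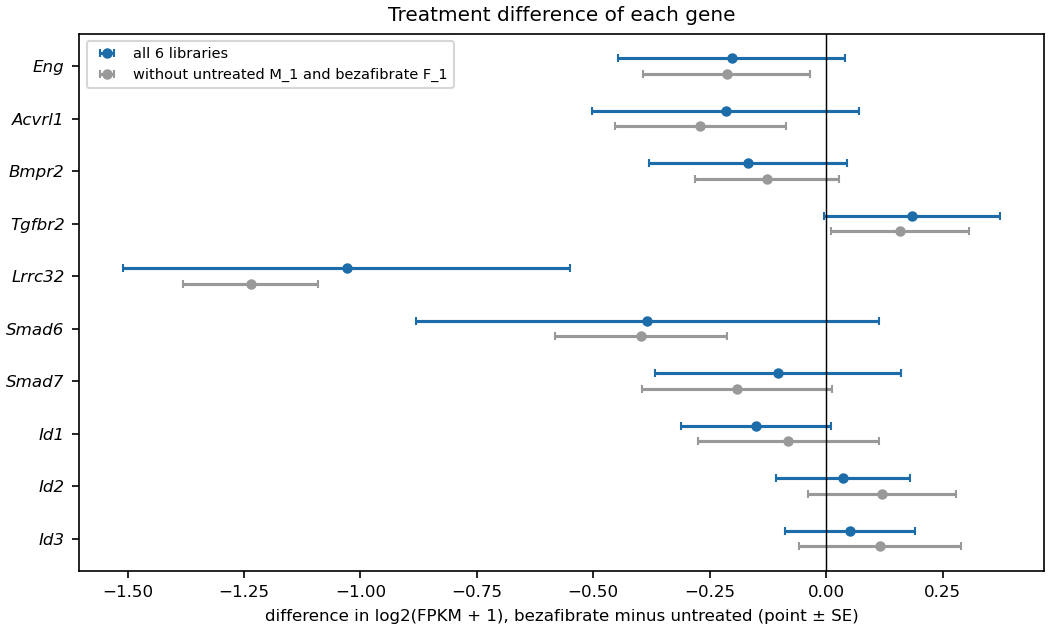
Difference in log2(FPKM + 1) between bezafibrate and untreated libraries for each gene (point ± SE from limma), with all 6 libraries (blue) and without untreated M_1 and bezafibrate F_1 (grey). Lrrc32 lies at -1.03 and -1.24 and Tgfbr2 at 0.18 and 0.16, and the SE of Smad6 is 0.498 with all libraries and 0.185 without these 2. Smad6 and Lrrc32 were highest in the libraries left out, so their smaller SE follows from that choice.

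Smad6 (ENSMUSG00000036867, chromosome 9, 63953076 to 64022059, minus strand) encodes an inhibitory SMAD that acts mainly on BMP signalling and is itself induced by it. It had 76.0, 82.3 and 206 FPKM in the untreated libraries and 161, 51.5 and 69.5 with bezafibrate. Untreated M_1 was 2.60 times the mean of the other untreated libraries, and bezafibrate F_1 was 2.65 times the mean of the other bezafibrate libraries. The reads behind these values ran from 3510 to 12256, so counting error is small beside the spread. Other technical variation between the libraries was not tested. Group means of 121 ± 73.3 and 93.9 ± 58.5 FPKM (SD, n = 3 each) gave a log2 difference of -0.38 (SE 0.498). That difference was 0.07 without untreated M_1 and -0.85 without bezafibrate F_1.

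Smad7 (ENSMUSG00000025880, chromosome 18, 75367529 to 75395935, plus strand), the inhibitory SMAD that acts on both TGF-beta and BMP receptors, shared the high libraries over a smaller range. It had 35.6, 52.6 and 59.9 FPKM in the untreated libraries and 63.1, 36.9 and 38.8 with bezafibrate. Bezafibrate F_1 was the highest library and untreated M_1 the second, with untreated F_2 close below. The log2 difference was -0.10 (SE 0.264), and its sign turned in 5 of 17 alternative fits.

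The ID genes varied least. Id1 (ENSMUSG00000042745, chromosome 2, 152736251 to 152737410, plus strand) had 564, 692 and 758 FPKM in the untreated libraries and 619, 571 and 612 with bezafibrate. The bezafibrate values lay inside the untreated range, and the log2 difference was -0.15 (SE 0.162). Its coefficient of variation over the 6 libraries was 11.8%, against 56.8% for Smad6.

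Id3 (ENSMUSG00000007872, chromosome 4, 136143497 to 136145755, plus strand) had 294, 339 and 344 FPKM in the untreated libraries and 326, 328 and 356 with bezafibrate. No library stood out, with a coefficient of variation of 6.45%. Id2 (ENSMUSG00000020644, chromosome 12, 25093799 to 25097140, minus strand), another of the same family, had 37.9, 45.6 and 50.2 FPKM in the untreated libraries and 45.7, 46.8 and 43.9 with bezafibrate. The log2 differences were 0.05 (SE 0.139) for Id3 and 0.04 (SE 0.145) for Id2, and neither ID gene was among those highest in both untreated M_1 and bezafibrate F_1.

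Over the 6 libraries the order of mean levels, on the FPKM scale and therefore per length, was Eng (676 ± 161), Id1 (636 ± 75.2), Id3 (331 ± 21.4), Acvrl1 (314 ± 91.1), Smad6 (108 ± 61.2), Tgfbr2 (62.6 ± 10.3), Smad7 (47.8 ± 12.3), Lrrc32 (46.9 ± 27.9), Id2 (45.0 ± 4.06) and Bmpr2 (42.6 ± 9.01), each as mean ± SD over all libraries. Of neighbours in this order, Id1 and Id3 did not overlap, nor did Acvrl1 and Smad6. The other neighbours overlapped in range: Eng exceeded Id1 in 3 of 6 libraries, Id3 exceeded Acvrl1 in 4, and the lowest 4 genes did not differ beyond their spread.

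Smad6 and Lrrc32 were the 2 genes whose highest library was at least 2 times the lowest in both groups, a spread found in 9.35% of all genes tested. In untreated M_1 and bezafibrate F_1, relative to the mean of the other libraries of the same group, Eng stood at 1.49 and 1.52, Acvrl1 at 1.55 and 1.74, Bmpr2 at 1.48 and 1.36, and Smad7 at 1.36 and 1.67. Smad6 stood at 2.60 and 2.65 and Lrrc32 at 2.05 and 3.22. Id1 (1.21 and 1.05), Id2 (1.20 and 1.01) and Id3 (1.09 and 0.951) lay nearer 1, and Tgfbr2 stood at 0.723 and 0.764. By the same measure the summed endothelial markers stood at 1.31 and 1.47, or 1.13 and 1.24 without Slc2a1, and the summed pericyte markers at 0.584 and 1.04. Single endothelial markers ran from Tek (0.724 and 0.849) to Slc2a1 (1.52 and 1.75), with 4 of 10 above 1 in both groups, 2 below 1 in both and 4 above 1 in 1 group only. Smad6 and Lrrc32 lay above each of the 10 markers in both groups.

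**Figure D3:**
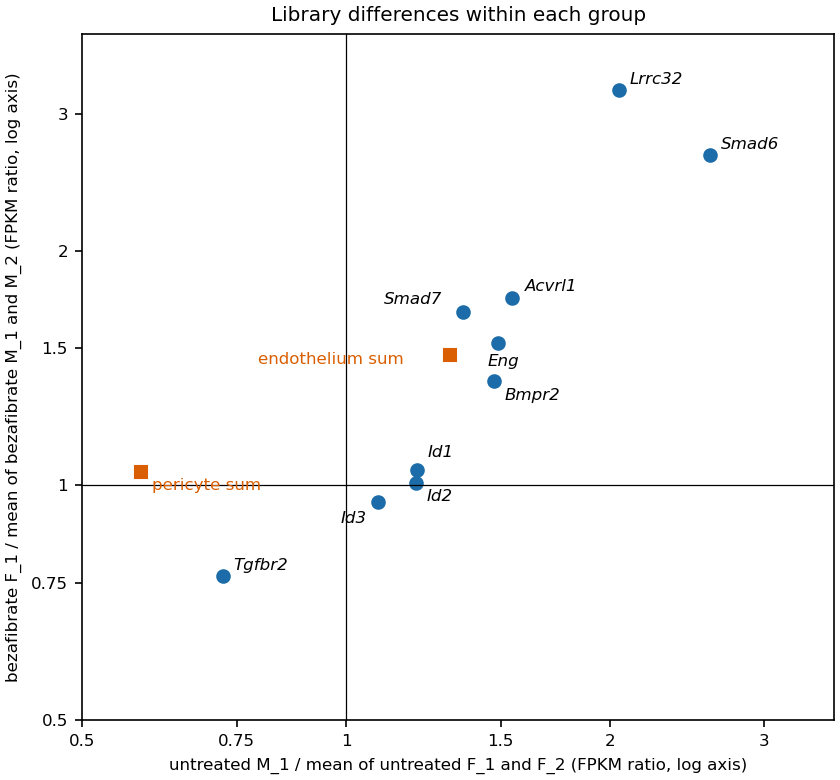
FPKM of untreated M_1 over the mean of untreated F_1 and F_2 (x axis) against bezafibrate F_1 over the mean of bezafibrate M_1 and M_2 (y axis), on log axes, for each gene (circles) and for 2 summed marker lists (squares). Smad6 and Lrrc32 lie at the upper right, the ID genes near 1 and Tgfbr2 at the lower left.

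Other scalings kept 6 of the 10 genes highest in untreated M_1 and bezafibrate F_1. This held with values rescaled to TPM (a scale on which every library has the same sum, where 9.04% of all genes show that order), with quantile scaling (14.5%) and with recovered reads divided by their sum (8.73%). On the TPM scale Smad6 stood at 2.36 and 2.30 times the mean of the other libraries of its group, Lrrc32 at 1.86 and 2.77, and Tgfbr2 at 0.656 in each group. Rescaling to TPM also moved the median treatment difference of all genes from -0.01 to 0.10, and Eng, Acvrl1 and Bmpr2 then stood at -0.09, -0.10 and -0.05.

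Male and female libraries were compared with treatment as a covariate. The limma test called 0 of the 10 genes, beside 3 of 11277 genes (0.0266%), which were Xist, Ddx3y and Eif2s3y. At an unadjusted p under 0.05 the count in this fit was 0 of 10. Limma-voom also called 0 of the 10 at an adjusted p under 0.05. The log2 difference (male minus female), with an adjusted p = 1.00 for each gene, ran from -0.31 (SE 0.540) for Lrrc32 to 0.13 (SE 0.163) for Id2. For Smad6 it was -0.02 (SE 0.574) with all libraries, -1.41 without untreated M_1 and 1.37 without bezafibrate F_1, so that the library left out set its sign.

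Beyond the 10 genes, 72 other genes of the pathway were listed by role, and 47 passed the filter on low values. Of these 47 genes limma called 0 between treatments, 16 had a positive and 31 a negative difference, and the median was -0.10 against -0.01 for all genes tested. This split turned to 26 positive and 21 negative on the TPM scale and to 25 and 22 with the composition ratio as a covariate, so the counts by role below hold for the FPKM scale without that covariate. An unadjusted p under 0.05 was found for 3 of them and for 472 of the 11277 genes (4.19%). Groups did not overlap in 5 of 47 (10.6%, beside 8.42% of all genes). Untreated M_1 and bezafibrate F_1 were the highest libraries for 15 of the 47 (31.9%, beside 17.1%), and for 9 (19.1%, beside 9.04%) on the TPM scale.

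Ligands were scarce. Of 14 BMP, GDF and activin ligands 3 passed the filter, with a log2 treatment difference above 0 for 2 and below 0 for 1. Gdf2 and Bmp10, which encode the ALK1 ligands BMP9 and BMP10, had 0 recovered reads in every library, which allows up to 3 reads per library. Bmp6 had 5.84, 1.96 and 4.87 FPKM in the untreated libraries and 4.12, 5.74 and 3.66 with bezafibrate, in overlapping groups. Bmp2, at 0.870 ± 0.458 and 1.46 ± 0.146 FPKM (SD, n = 3 each), did not overlap between the groups. This level is close to the filter, with 22 to 120 reads per library, and the difference did not pass the test (limma adjusted p = 0.999). The stress-induced ligand gene Gdf15 was highest in bezafibrate F_1 at 8.76 FPKM, against 2.74 to 5.36 elsewhere.

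TGF-beta ligands and their release machinery were better represented, with 8 of 10 genes past the filter, 7 of them below 0, and a median difference of -0.20. Ltbp4, which tethers latent TGF-beta to matrix, had 593 ± 89.3 and 513 ± 43.8 FPKM (SD, n = 3 each), close to the level of Eng. Tgfb1 had 31.3, 36.9 and 59.7 FPKM in the untreated libraries and 58.9, 25.0 and 32.9 with bezafibrate, highest in the same libraries as Smad6. Tgfb2 was lowest where Tgfb1 was highest, at 7.77 FPKM in untreated M_1 and 5.47 in bezafibrate F_1, against 9.60 to 20.9 elsewhere. Thbs1, a matrix protein that can release TGF-beta from latency, had 4.46 ± 1.01 and 3.01 ± 1.85 FPKM, a log2 difference of -0.52 (SE 0.310).

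Of 12 other receptors and co-receptors 9 passed the filter, 4 above and 5 below 0. The betaglycan gene Tgfbr3 (25.3 ± 2.76 and 23.0 ± 2.98 FPKM) and the type I BMP receptor Acvr1 (15.6 ± 1.75 and 15.0 ± 0.980) were the most abundant of them. The groups overlapped in both genes. The type II receptor Acvr2a had a log2 difference of 0.13 (SE 0.160).

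Among 6 signal-transducing SMADs 5 passed the filter. Smad1, a carrier of the BMP signal, had 20.7, 18.6 and 25.2 FPKM in the untreated libraries and 17.5, 10.7 and 11.8 with bezafibrate. Every bezafibrate library lay below every untreated one, with a log2 difference of -0.67 (SE 0.207) that did not pass the test (limma adjusted p = 0.999). Smad5, its close relative, had 8.31 ± 0.216 and 10.4 ± 0.892 FPKM (SD, n = 3 each), with every bezafibrate library above every untreated one and a log2 difference of 0.28 (SE 0.128, adjusted p = 0.999). Smad4, the shared partner of both branches, had 29.0 ± 2.55 and 26.9 ± 2.42 FPKM.

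All 8 listed intracellular inhibitors passed the filter, 7 of them below 0 with a median of -0.17. On the TPM scale 5 were below 0 with a median of -0.07, and with the composition ratio as a covariate 3 were below 0 with a median of 0.07. On the FPKM scale 6 of the 8 were highest in untreated M_1 and bezafibrate F_1, an order found in 17.1% of all genes tested. That order was not counted by role on the other scales. Ski, a repressor that binds SMADs, had 43.2, 48.4 and 68.8 FPKM in the untreated libraries and 62.6, 42.8 and 43.8 with bezafibrate. Fkbp1a, which holds type I receptors inactive, had 77.9 ± 23.4 and 71.0 ± 11.8 FPKM (SD, n = 3 each). Skil, a relative of Ski that TGF-beta induces, did not share that order. It had 24.1, 28.9 and 22.4 FPKM in the untreated libraries and 20.5, 16.6 and 14.8 with bezafibrate, without overlap, a log2 difference of -0.52 (SE 0.167, adjusted p = 0.999). The pseudoreceptor gene Bambi stood at 11.2 ± 1.73 and 8.70 ± 2.15 FPKM.

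Secreted antagonists passed the filter in 5 of 12 cases, 2 above and 3 below 0. Mgp, a matrix protein that binds BMPs, had 130 ± 35.4 and 163 ± 47.8 FPKM (SD, n = 3 each), with a log2 difference of 0.33 (SE 0.273) that was -0.12 with the replicate block described in the closing section. Htra1, a protease that acts on TGF-beta family proteins, had 46.3 ± 8.61 and 39.0 ± 3.02 FPKM. Nog, which encodes the BMP antagonist noggin, had 1.87 ± 1.21 and 2.61 ± 0.279.

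Of 10 other target genes 9 passed the filter, 5 above and 4 below 0, with a median of 0.01. Hes1 (151 ± 15.7 and 150 ± 27.4 FPKM) and Ctgf (141 ± 13.8 and 112 ± 19.1) were the most abundant. Gata2, an endothelial transcription factor, had 47.9, 63.8 and 102 FPKM in the untreated libraries and 108, 78.2 and 88.1 with bezafibrate, and its log2 difference was 0.41 (SE 0.273). Atoh8, an ALK1-responsive transcription factor gene named here after its values were seen, had 6.87 ± 1.22 and 8.81 ± 0.0699 FPKM. Its groups did not overlap, and the difference did not pass the test (limma adjusted p = 0.999).

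**Figure D4:**
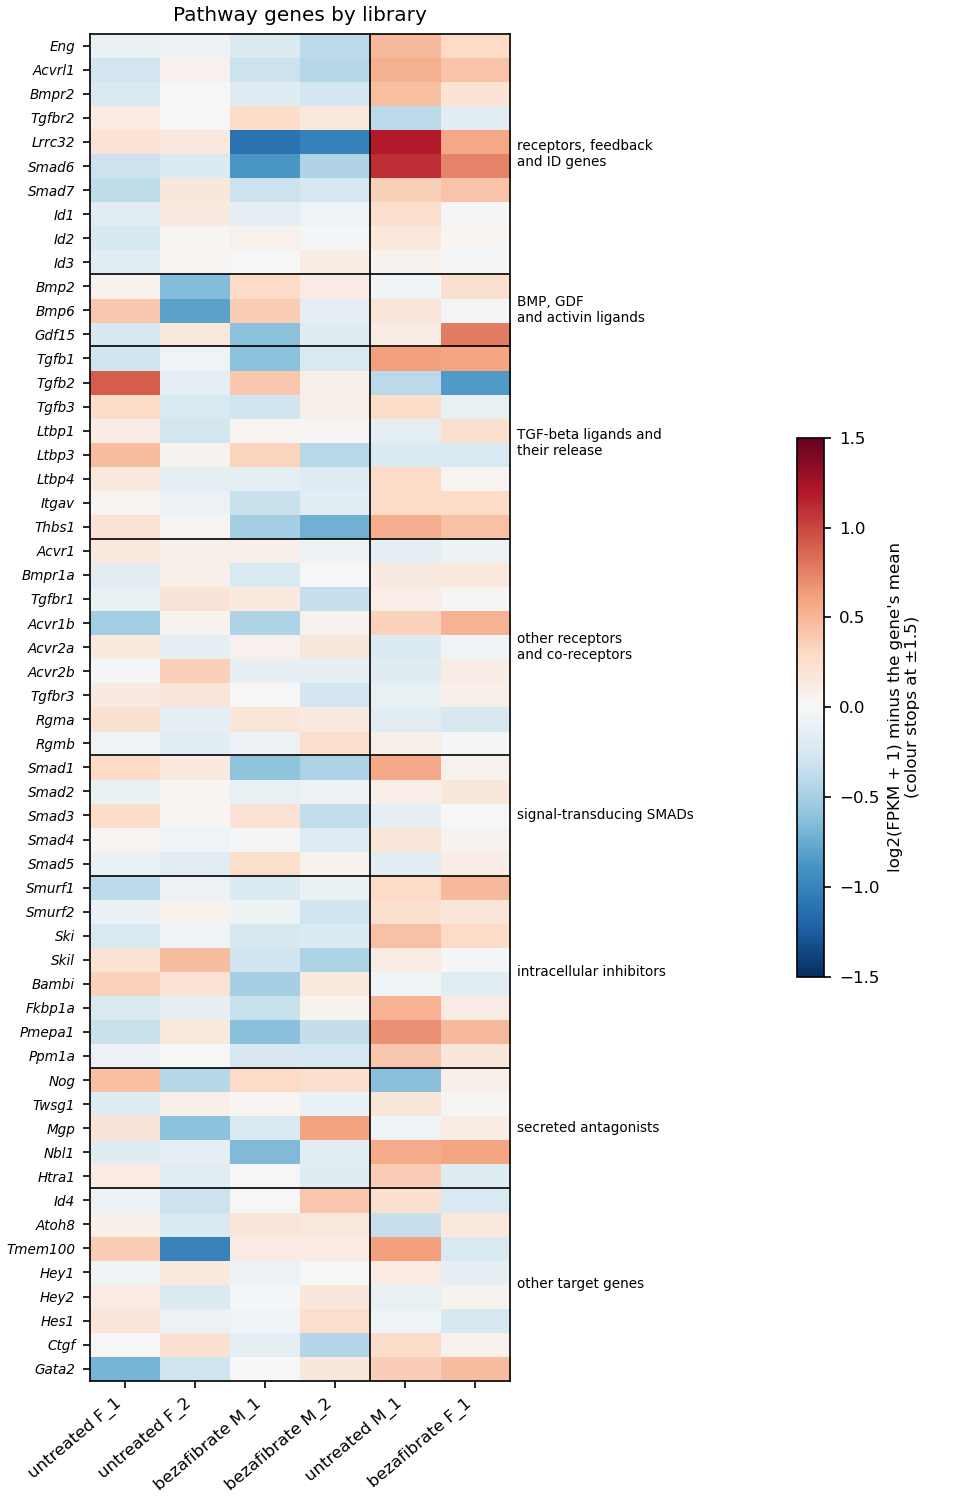
Log2(FPKM + 1) minus the gene's mean over 6 libraries (colour) for the 10 genes and the other pathway genes past the filter except 1 not reported here, in rows by role, with untreated M_1 and bezafibrate F_1 set to the right of the line. Smad6, Lrrc32, Tgfb1 and Ski are red in these columns, and Tgfbr2 and Tgfb2 are blue.

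Genes most like the feedback and ID genes in pattern were found by Pearson r, over the 6 libraries, with the mean standardised level of Smad6, Smad7, Id1, Id2 and Id3. That mean was highest in untreated M_1 (1.16) and lowest in untreated F_1 (-1.204), with bezafibrate F_1 at 0.390. Among 10056 protein-coding candidates the highest r were those of Stam (0.996), Tubb4b (0.993), Tbk1 (0.985), Tcta (0.983) and Ddx23 (0.979), and the lowest those of Usb1 (-0.990), Vegfc (-0.987) and Hace1 (-0.987). Tubb4b, a beta-tubulin gene, had 78.9, 115 and 150.1 FPKM in the untreated libraries and 125, 97.2 and 103 with bezafibrate. Vegfc, a lymphatic growth factor gene, had 29.4, 14.4 and 10.8 in the untreated libraries and 13.0, 22.3 and 18.9 with bezafibrate. These r are the extremes of many genes over few libraries and describe likeness in these libraries.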

How the data were processed

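RNA-seq of 6 libraries was analysed. Per the labels' protocols, the authors made cDNA with SMART-Seq HT, de-duplicated single-end reads of 75 bases and mapped them with Salmon; the submitters' processing notes name GRCm38. The values the authors deposited are FPKM. For strand use, annotation and Salmon version, the sources used here give nothing. The untreated male column is headed UT_22q_M_2, while its sample's title is UT_22q_M_1. It was assigned through the sample's description, and the name M_1 used here follows the title.

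FPKM times gene length gave whole reads within 0.01 for 100% of values. Values were analysed as log2(FPKM + 1), which understates changes of low genes, for genes reaching an FPKM of 1 in 3 or more libraries, with limma 3.58.1 in R 4.3.3 (eBayes with a trend, two-sided, Benjamini-Hochberg over 11277 genes, called at an adjusted p under 0.05). The fit was tested on simulated data. P-values measure the spread between pools.

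Genes and lists were chosen with earlier results of these data known. Named pathway genes are any called gene and, per list, the 2 highest in mean and the 2 largest in difference. The values of 1 gene so chosen are not reported here. The 5 most and 3 least alike genes were taken by r. Exon overlaps come from GENCODE M21 (GRCm38). Alternatives covered pseudocount, filter, scaling, covariates, weights, limma-voom and libraries left out.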

Additional observations from a re-analysis of the deposited data

How the results depend on the processing

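Between treatments, limma called 0 of the 10 genes and 0 of the other pathway genes in all 17 alternative fits, and 0 of the 10 between sexes in the 12 fits run. Among all genes, 1 was called under treatment, higher with bezafibrate. The count was 0 with the replicate block, 0 with limma-voom, 0 without both untreated M_1 and bezafibrate F_1, and 0 to 3 with 1 library left out (3 without bezafibrate F_1, each of them lower with bezafibrate, 0 without bezafibrate M_1 and 0 without bezafibrate M_2). The sex calls ran from 1 to 4 with 1 library left out. The cause was not tested. The sex fit without both libraries was not run, because sex and treatment coincide in the remaining libraries. Id1 and Lrrc32 kept the sign of their treatment difference in 17 of 17 fits, and Lrrc32 ranged from -1.57 without bezafibrate F_1 to -0.38 with the composition ratio as a covariate. With the composition ratio as a covariate, Smad6 (0.28), Smad7 (0.24), Eng (0.08), Acvrl1 (0.16), Bmpr2 (0.08) and Tgfbr2 (-0.02) had the opposite sign. Other sign changes came without untreated F_1 for Id2 and Id3, with sex as a covariate for Id2, without untreated M_1 for Smad6, Smad7 and Bmpr2, and with TPM, the replicate block or bezafibrate M_1 left out for Smad7. The library order on the TPM, quantile and read scales was examined as an alternative chosen after seeing the data. Of 692 values of single genes under alternatives, for treatment and sex together, 669 moved by less than the pooled SD within the groups. That SD includes untreated M_1 and bezafibrate F_1, and changes of sign fall within it, such as Smad6 from -0.38 to 0.28. This count therefore does not show that a difference is stable.

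Same-named libraries did not deviate together (correlation of deviations -0.364 for F_1 and -0.2985 for M_1), so a shared name was not taken to pair them. The replicate block gives libraries of the same name in the groups a shared level. Only the names F_1 and M_1 occur in both groups, so only those libraries inform its treatment difference. This rests on the title of untreated M_1. By its column header that library would share a name with bezafibrate M_2 instead (correlation of deviations -0.156), and the block was not fitted that way. With this block, Smad6 stood at -0.45 and Lrrc32 at -0.97. With 3 libraries against 3, the smallest p an exact permutation test can give is 0.1, and counts of reads were not the limit for the 10 genes, each with at least 1708 reads per library.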

Other observations

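Ratios between the genes, formed within a library and so free of its scaling, are given as values. Smad6 over Smad7 was 2.13, 1.57 and 3.44 in the untreated libraries and 2.55, 1.40 and 1.79 with bezafibrate. Eng over Tgfbr2 was 9.13, 10.1 and 19.8 in the untreated libraries and 14.8, 7.54 and 7.29 with bezafibrate. Acvrl1 over Tgfbr2 ran from 3.22 to 9.41 over the 6 libraries, and Smad6 over Id1 from 0.0902 to 0.272. Untreated M_1 and bezafibrate F_1 were highest in each of these 4 ratios. Eng over Acvrl1 ran from 1.97 to 2.45, and Acvrl1 over Bmpr2 from 6.55 to 8.42. Id1 over Id3 was 1.92, 2.04 and 2.20 in the untreated libraries and 1.90, 1.74 and 1.72 with bezafibrate, so that its groups did not overlap. The groups overlapped in every other ratio given here, and in Id1 and Id3 taken alone. Of single genes tested, 8.42% had groups without overlap, and no such share was computed for ratios. No test was made of this ratio.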
